A study of Homo sapiens with 6 samples.

Results

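Aldehyde dehydrogenases are enzymes that oxidize aldehydes to carboxylic acids with NAD or NADP. The 10 members described here, ALDH1A1, ALDH1A2, ALDH1A3, ALDH1B1, ALDH2, ALDH3A1, ALDH3A2, ALDH7A1, ALDH9A1 and ALDH18A1, were taken by symbol from a table of 58174 genes, which lists 19 ALDH genes in all. The table came from RNA-seq of AGS cells, a human gastric adenocarcinoma cell line, in a study of the RNA demethylase FTO in gastric cancer. It compares 3 libraries titled si-NC with 3 titled si-FTO. By the titles and the study's methods, si-NC cells received a control siRNA and si-FTO cells an siRNA against FTO, while the sample labels name the genotypes wild type and FTO-/-. Which of the descriptions holds for the si-FTO cells could not be told from the values. The labels name AGS and total RNA for all libraries, and nothing in the labels says whether the 3 libraries of a group were separate cultures.

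The deposited values are TPM, the share of each gene in all transcripts after correction for length, so that levels can be compared between genes. For each group they are given as the authors' mean over its libraries, with no value per library and no sequencing depth. The spread between libraries is therefore unknown, no difference could be tested, and neighbours in an order of levels cannot be told apart by their spread. A gene is counted as higher or lower, and otherwise as within the threshold, only in the sense that its means, each with 1 TPM added, differed at least 2-fold between si-FTO and si-NC. Log2 ratios are on the scale of log2(mean TPM + 1), which understates the difference of genes with low levels. A fold was taken from the means themselves.

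The FTO mean was 33.1 TPM in si-NC against 7.27 TPM in si-FTO, 4.56-fold lower, so the depleted gene followed the group titles. The cell type was less plain. Of 8 epithelial markers, all were found, 5 were higher, 1 was lower (CDH1, at 3.67 and 0.685 TPM), and their summed level was 69.3 TPM in si-NC against 5102 TPM in si-FTO. The most abundant was KRT18 in si-NC (52.1 TPM) and KRT8 in si-FTO (3139 TPM). Defining epithelial genes were low in both groups, with EPCAM at 1.22 and 0.113 TPM and KRT19 at 0.130 TPM in si-FTO and listed at 0 in si-NC. Of 8 gastric markers, 7 were found, with sums of 2.36 TPM in si-NC against 32.3 TPM in si-FTO, nearly all of the latter from the mucin gene MUC1 (31.0 TPM), and TFF1 and GKN1 were listed at 0 in both. Genes that mark cell types differed widely between the groups: KRT8 was at 10.8 TPM in si-NC against 3139 TPM in si-FTO, ELF3 at 0.115 and 93.3 TPM, the endothelial gene CDH5 at 0.00827 and 40.9 TPM, and SOX2 at 13.2 TPM in si-NC but listed at 0 in si-FTO. Whether both groups are the same line in the same state was not tested, and such a difference cannot be told apart from FTO depletion in any ratio given here. The part of these marker differences in the values of the aldehyde dehydrogenases was not tested. In such bulk RNA, fewer cells of a type and less RNA per cell cannot be told apart.

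The family divides its work by substrate and compartment. Cytosolic ALDH1A enzymes turn retinaldehyde into retinoic acid, mitochondrial enzymes clear acetaldehyde and other small aldehydes, and ALDH3 enzymes act on fatty and aromatic aldehydes, many of them products of lipid peroxidation. ALDH activity is widely used as a marker of stem-like tumour cells, and the stomach is a known site of ALDH3A1 expression.

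All 10 members passed the filter of a mean of at least 0.5 TPM in at least 1 group. Among them, 1 was higher in si-FTO (ALDH3A1), 3 were lower (ALDH1A1, ALDH1A2 and ALDH2), and 6 differed less than 2-fold. Over the 20493 genes compared, 11.4% were higher and 17.0% were lower, so with 10 members the counts give no reading for the family as a whole. The median log2 ratio was -0.18 over the members and -0.20 over all genes compared. The difference between members was wide, from -5.22 for ALDH1A2 to 2.36 for ALDH3A1, with 5 members above 0 and 5 below.

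**Figure D1:**
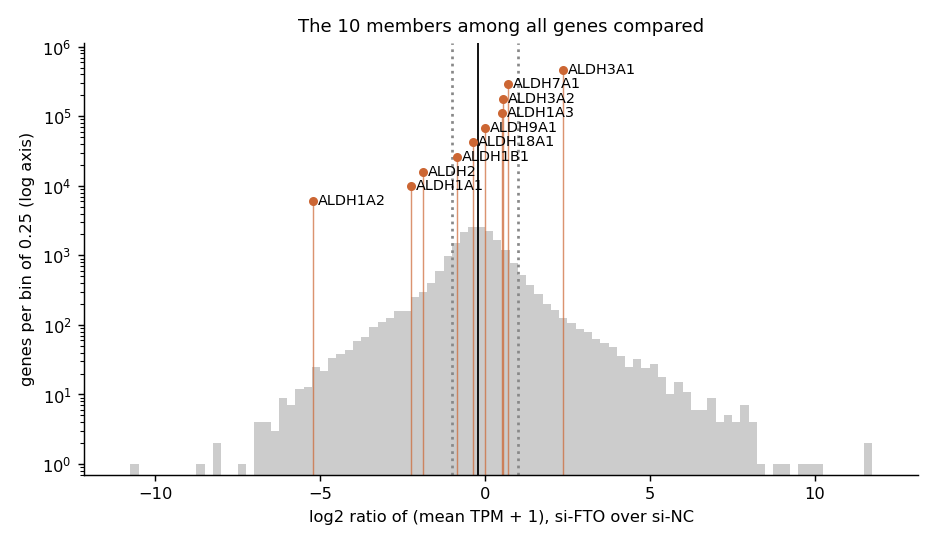
Histogram of the log2 ratios (si-FTO over si-NC, mean TPM + 1) of the 20493 genes compared, with the number of genes per bin on a log axis, the black line at their median of -0.20 and dotted lines at a 2-fold difference. The 10 members are marked at their log2 ratios, with names stacked at heights that carry no value, and ALDH1A2, ALDH1A1, ALDH2 and ALDH3A1 lie beyond the dotted lines.

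The largest difference among the members was in 1 of the 3 genes that make retinoic acid. ALDH1A2 (ENSG00000128918, chr15:58245622-58790065 in GRCh37, minus strand), the main retinoic acid-forming enzyme of the embryo, had a mean of 46.0 TPM in si-NC against 0.258 TPM in si-FTO. It was 178-fold lower, with a log2 ratio of -5.22, and only 0.303% of the genes compared had a smaller one. ALDH1A1 (ENSG00000165092, chr9:75515587-75695358, minus strand), the isoform best known from assays of ALDH activity in stem cells, had a mean of 3.74 TPM in si-NC but was listed at 0 in si-FTO. No fold can be given against a value of 0, and its log2 ratio of -2.24 depends on the pseudocount. ALDH1A3 (ENSG00000184254, chr15:101417919-101456831, plus strand), which serves eye and nasal development and is expressed in many carcinomas, stood at 4.69 TPM in si-NC against 7.23 TPM in si-FTO, with a log2 ratio of 0.53. The 3 genes together summed to 54.5 TPM in si-NC against 7.48 TPM in si-FTO, 7.28-fold lower. ALDH1A2 made up 84.5% of that sum in si-NC and ALDH1A3 96.6% in si-FTO, so the leading isoform was not the same in the groups.

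Promoter sequences were available for 8 of the 10 members, from RefSeq on GRCh38.p14, as the 250 bases before and 50 bases after a transcription start. ALDH2 and ALDH3A1 had no entry. The promoters of the 3 retinaldehyde dehydrogenases are shown because these genes share a reaction. Of them, ALDH1A1 and ALDH1A2 were lower and ALDH1A3 was within 2-fold. They lie at chr9:72953004-72953303 on the minus strand for ALDH1A1, chr15:58065662-58065961 on the minus strand for the first of 2 listed starts of ALDH1A2, and chr15:100879581-100879880 on the plus strand for ALDH1A3. Capitals mark CCAAT, the word of the CCAAT box, and GCGTG, the core word bound by the aryl hydrocarbon receptor (CACGC where it lies on the other strand).
ALDH1A1: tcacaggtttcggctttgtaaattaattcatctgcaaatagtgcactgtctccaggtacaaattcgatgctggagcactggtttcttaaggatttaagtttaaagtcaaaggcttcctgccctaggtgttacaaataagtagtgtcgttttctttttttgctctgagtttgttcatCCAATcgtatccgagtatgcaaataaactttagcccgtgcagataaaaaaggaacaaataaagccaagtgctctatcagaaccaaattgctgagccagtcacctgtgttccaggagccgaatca
ALDH1A2: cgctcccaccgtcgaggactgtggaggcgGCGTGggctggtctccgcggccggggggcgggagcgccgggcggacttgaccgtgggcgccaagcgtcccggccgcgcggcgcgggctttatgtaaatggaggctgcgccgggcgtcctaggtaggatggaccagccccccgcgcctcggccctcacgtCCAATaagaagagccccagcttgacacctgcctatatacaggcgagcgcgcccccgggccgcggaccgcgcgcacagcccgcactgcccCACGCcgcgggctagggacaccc
ALDH1A3: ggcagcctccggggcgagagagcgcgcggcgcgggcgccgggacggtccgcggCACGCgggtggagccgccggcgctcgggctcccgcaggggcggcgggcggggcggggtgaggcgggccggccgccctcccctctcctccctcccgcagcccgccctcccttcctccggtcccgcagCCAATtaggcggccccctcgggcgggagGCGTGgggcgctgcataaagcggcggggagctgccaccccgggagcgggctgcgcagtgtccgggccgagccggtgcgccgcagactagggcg

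All 3 sequences hold 1 CCAAT, which begins 74, 62 and 71 bases before the start in ALDH1A1, ALDH1A2 and ALDH1A3. Their base composition differs. The ALDH1A1 promoter has 7 CG dinucleotides and 40.3% G and C, against 41 and 74.0% in the first ALDH1A2 promoter and 46 and 81.7% in ALDH1A3, while the median over 35116 promoters was 14 and 58.7%. GCGTG was present at 2 places each in the ALDH1A2 and ALDH1A3 promoters. The second listed start of ALDH1A2 (chr15:58013974-58014273, minus strand) had 1 CG dinucleotide and none of the words searched.

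Across the 10 promoter windows of the 8 members, CCAAT on either strand was found in 6, from 6 genes. Of all 35116 promoters, 34.6% hold it. The other 3 genes are shown with 20 bases on each side of the word, which is ATTGG on the printed strand for ALDH1B1. It begins 26 bases before the start in ALDH1B1, 30 in the second listed start of ALDH3A2 and 63 in ALDH7A1, and the windows lie within chr9:38392452-38392751, chr17:19648501-19648800 (both plus strand) and chr5:126595170-126595469 (minus strand).
ALDH1B1: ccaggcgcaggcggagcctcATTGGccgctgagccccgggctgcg
ALDH3A2: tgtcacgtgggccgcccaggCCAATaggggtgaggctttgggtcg
ALDH7A1: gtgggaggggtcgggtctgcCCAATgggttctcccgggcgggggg

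The CCAAT word was thus present both in members that were lower (ALDH1A1 and ALDH1A2) and in 4 members within 2-fold. GCGTG was found in 3 of the 10 windows (ALDH1A2, ALDH1A3 and ALDH3A2), against 36.5% of all promoters. TGACNNNGC, the core of the antioxidant response element, TATAAA, the TATA box word, and AGGTCA, the hexamer of retinoid receptors, were in 0 of the 10 windows, against 13.3%, 11.5% and 13.8% of all promoters. All words were searched on both strands, and a match is a description of these letters only.

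The genes around retinaldehyde oxidation were described from lists for retinoid supply and breakdown, receptors and targets. Of 19 genes of supply and breakdown, 14 were compared, 5 were higher and 4 lower, with a median log2 ratio of -0.039. STRA6, the cell surface receptor for retinol uptake, was at 0.746 TPM in si-NC against 94.3 TPM in si-FTO. RDH10, which oxidizes retinol to retinaldehyde, was at 13.5 and 137.6 TPM, and DHRS3, which catalyses the reverse step, at 8.34 and 75.9 TPM. RDH10 and DHRS3 were thus higher where ALDH1A1 and ALDH1A2 were lower. The genes RDH11, RDH13 and RDH14 of the same list were within 2-fold. RDH11 was at 47.2 TPM in si-NC against 69.5 TPM in si-FTO, RDH13 at 28.6 and 19.3 TPM, and RDH14 at 24.5 and 15.6 TPM.

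The genes that bind and degrade retinoic acid were lower or within 2-fold. Within 2-fold was CYP26B1, a gene of degradation, at 4.29 TPM in si-NC against 5.87 TPM in si-FTO. CRABP2, which delivers retinoic acid to its receptors, was at 225.4 TPM in si-NC against 23.8 TPM in si-FTO, and CYP26A1, which degrades retinoic acid, at 8.71 and 0.564 TPM. DHRS4 and RBP4 were also higher, and FABP5 was also lower.

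Of the 6 retinoid receptors, all compared, 1 was higher and 2 were lower, with a median of 0.45. RARG stood at 26.7 TPM in si-NC against 54.7 TPM in si-FTO, RARB at 6.70 and 1.85 TPM, and RXRG at 6.62 TPM in si-NC while listed at 0 in si-FTO. Of 12 genes known as targets of retinoic acid, 10 were compared, 5 were higher and 4 lower, with a median of 1.39. Among targets with no role in retinoid handling, TGM2, a transglutaminase, was at 4.43 and 165 TPM and RARRES1 was listed at 0 in si-NC but reached 50.5 TPM in si-FTO. Targets were thus split in direction, and 5 of the 12 also belong to the lists of supply or receptors.

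**Figure D2:**
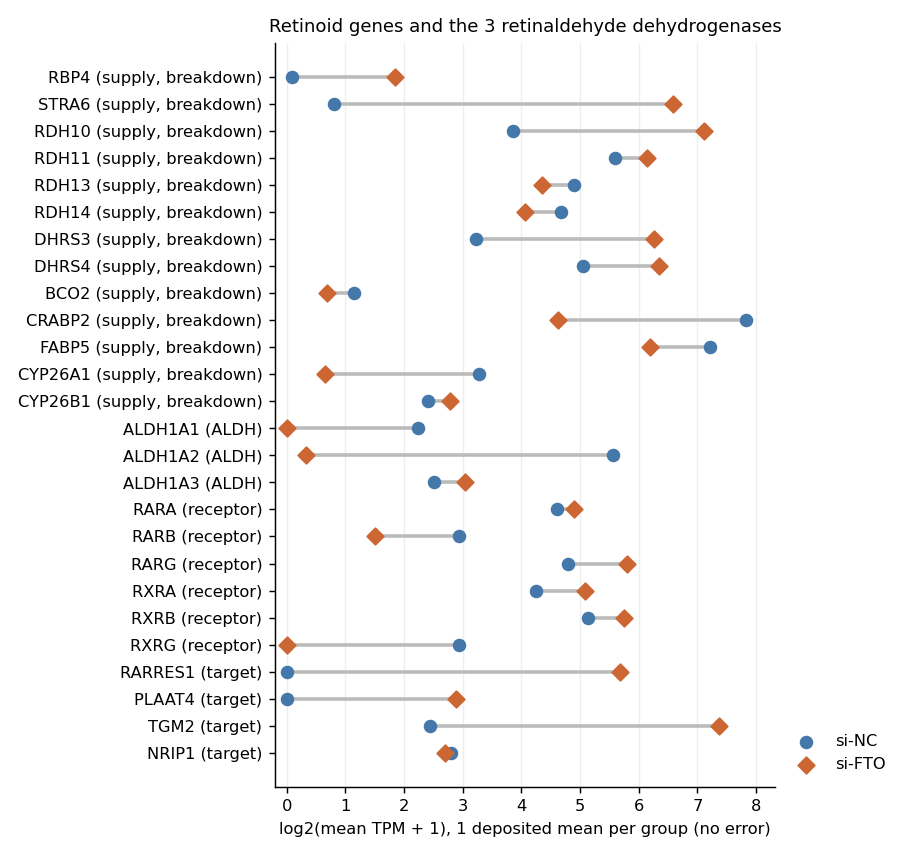
Mean levels of retinoid genes and of the 3 retinaldehyde dehydrogenases, as log2(mean TPM + 1), with circles for si-NC and diamonds for si-FTO, each 1 deposited mean without an error. ALDH1A2 and CRABP2 lie far to the left in si-FTO, and STRA6, RDH10, DHRS3 and TGM2 far to the right.

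Among the mitochondrial members, ALDH2 (ENSG00000111275, chr12:112204691-112255336, plus strand), which removes the acetaldehyde formed from ethanol and the lipid aldehyde hydroxynonenal, was at 18.6 TPM in si-NC against 4.34 TPM in si-FTO. It was 4.29-fold lower, with a log2 ratio of -1.88. ALDH1B1 (ENSG00000137124, chr9:38392699-38398658, plus strand), which also oxidizes acetaldehyde, was at 102.7 and 56.6 TPM, 1.82-fold lower and within the threshold. ALDH1B1 thus had a higher transcript level than ALDH2 in both groups, and protein was not measured here. Upstream of them, acetaldehyde can be formed by alcohol dehydrogenases, of which 7 were found and 1 was compared. That gene, ADH5, which acts on formaldehyde bound to glutathione, was at 105.6 TPM in si-NC against 69.3 TPM in si-FTO, and 5 of the 7 were listed at 0 in both groups.

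ALDH18A1 (ENSG00000059573, chr10:97365698-97416468, minus strand) differs from the other members in that it makes an aldehyde, the precursor of proline and ornithine, from glutamate. It had the highest mean of the members in both groups, 166 TPM in si-NC against 129 TPM in si-FTO, for a log2 ratio of -0.36. In its pathway, 9 genes were found, 8 were compared, 0 were higher and 2 were lower, with a median of -0.82. PYCR1, which completes proline synthesis in mitochondria, was at 135 and 56.9 TPM, and GLS2, a glutaminase, at 3.98 and 0.0605 TPM. The ornithine aminotransferase gene OAT, at 190.5 and 97.4 TPM, was just within 2-fold. ALDH18A1, ALDH1B1 and ALDH2 summed to 287 TPM in si-NC against 190 TPM in si-FTO, 1.51-fold lower.

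The only member past 2-fold in the other direction was ALDH3A1 (ENSG00000108602, chr17:19641297-19652256, minus strand), a cytosolic and nuclear enzyme for aromatic and medium-chain aldehydes. Its mean was 1.33 TPM in si-NC against 10.9 TPM in si-FTO, 8.22-fold higher, and its log2 ratio of 2.36 was above that of 96.3% of the genes compared. ALDH3A2 (ENSG00000072210, chr17:19551449-19589073, plus strand), the fatty aldehyde dehydrogenase of the endoplasmic reticulum, lies 52223 bases from it and was at 47.2 and 69.7 TPM, a log2 ratio of 0.55. Despite the larger ratio of ALDH3A1, ALDH3A2 made up 97.3% of the sum of both genes in si-NC and 86.5% in si-FTO. That sum was 48.6 TPM in si-NC against 80.6 TPM in si-FTO.

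ALDH3A1 is a known member of the gene battery of the aryl hydrocarbon receptor, a transcription factor that responds to planar aromatic compounds. Of 9 genes of this battery, ALDH3A1 included, 8 were compared, 4 were higher and 0 were lower, with a median of 0.71. NQO1, a quinone reductase, was at 4.60 TPM in si-NC against 119 TPM in si-FTO. CYP1B1 was at 2.76 and 20.3 TPM, and the receptor gene AHR at 4.62 and 10.6 TPM. Not all genes of the battery were higher. CYP1A1, its best known target, was at 1.77 and 0.557 TPM and TIPARP at 21.7 and 15.1 TPM, both within the threshold, although the means of CYP1A1 alone, without the added 1 TPM, differed 3.18-fold.

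ALDH3A2 also closes the breakdown of sphingosine phosphate. In the list for that route and for other fatty aldehydes, 6 of 6 genes were compared, 1 was higher and 0 were lower, with a median of -0.32. The higher one was SGPP1, a sphingosine phosphate phosphatase, at 12.8 TPM in si-NC against 46.4 TPM in si-FTO, while the lyase gene SGPL1, directly upstream of ALDH3A2, was at 25.5 and 20.3 TPM. SPHK2, a sphingosine kinase gene, was at 18.2 and 9.02 TPM.

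The remaining members serve amino acid and carnitine metabolism and were well expressed in both groups. ALDH7A1 (ENSG00000164904, chr5:125866892-125931054, minus strand), which oxidizes an aldehyde of lysine catabolism, was at 56.3 TPM in si-NC against 92.3 TPM in si-FTO, 1.64-fold higher and within the threshold. ALDH9A1 (ENSG00000143149, chr1:165631453-165667799, minus strand), which takes part in carnitine synthesis, was at 104.8 and 105.2 TPM. Its log2 ratio of 0.0050 was the smallest in size of the members, and it was -0.041 after quantile normalization.

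Around ALDH7A1, 6 of 6 other genes of lysine catabolism were compared, 0 were higher and 2 were lower, with a median of -0.34. AASS, which starts the pathway through saccharopine, was at 12.8 TPM in si-NC but listed at 0 in si-FTO. AADAT, whose product acts on the amino acid that ALDH7A1 forms, was at 14.2 and 2.92 TPM. The genes before and after ALDH7A1 in the route were thus lower while ALDH7A1 was not, and DHTKD1, further along, was at 41.3 and 41.6 TPM. Of 5 genes of carnitine synthesis and choline oxidation, 3 were compared and 0 passed 2-fold, with a median of -0.24 and with TMLHE, the first enzyme of carnitine synthesis, at 23.3 and 15.3 TPM and the carnitine transporter gene SLC22A5 at 14.1 and 16.2 TPM.

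The order of the members' levels in si-NC was ALDH18A1, ALDH9A1, ALDH1B1, ALDH7A1, ALDH3A2, ALDH1A2, ALDH2, ALDH1A3, ALDH1A1 and ALDH3A1. In si-FTO it was ALDH18A1, ALDH9A1, ALDH7A1, ALDH3A2, ALDH1B1, ALDH3A1, ALDH1A3, ALDH2, ALDH1A2 and ALDH1A1. The same 5 genes stood at the top in both groups, and the members past 2-fold all came from the lower 5. The sum of the 10 members was 551 TPM in si-NC against 475 TPM in si-FTO, 1.16-fold lower.

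Scaling matters for the smaller differences. Median-ratio scaling of the groups moved the log2 scale by 0.21 and the median of all genes compared to -0.032, with 2786 genes higher and 2885 lower in place of 2340 and 3492. Relative to the median of all genes, the log2 ratios were -5.02 for ALDH1A2, -2.04 for ALDH1A1, -1.67 for ALDH2, -0.65 for ALDH1B1 and -0.16 for ALDH18A1. They were 0.21 for ALDH9A1, 0.74 for ALDH1A3, 0.75 for ALDH3A2, 0.91 for ALDH7A1 and 2.56 for ALDH3A1. No member crossed the 2-fold threshold on this scale.

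**Figure D3:**
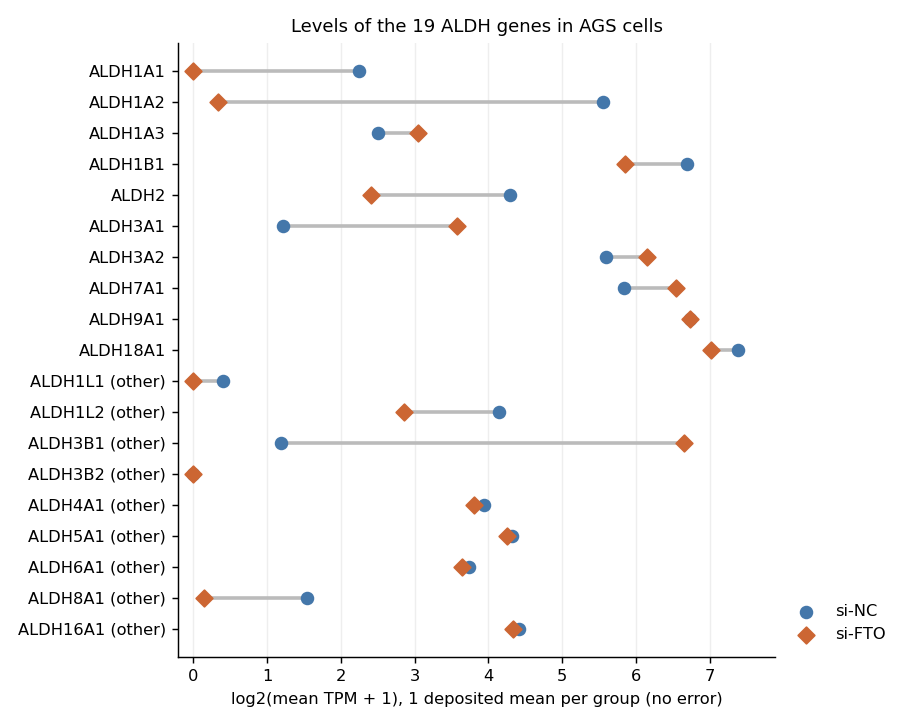
Mean levels of the 19 ALDH genes as log2(mean TPM + 1), with circles for si-NC and diamonds for si-FTO, each 1 deposited mean without an error, and "(other)" after genes that are not among the 10 members. ALDH1A2 and ALDH3B1 have the longest lines, in opposite directions, and ALDH9A1 has none.

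Of the 9 other ALDH genes, 7 were compared, 1 was higher and 2 were lower, with a median log2 ratio of -0.10. ALDH3B1, a membrane-bound enzyme for lipid aldehydes, was at 1.28 TPM in si-NC against 99.1 TPM in si-FTO, 77.6-fold higher, and its log2 ratio of 5.46 was above that of 99.5% of the genes compared. ALDH1L2, a mitochondrial enzyme of folate metabolism, was at 16.7 and 6.26 TPM, 2.67-fold lower, and ALDH8A1, an enzyme of tryptophan breakdown, at 1.91 and 0.102 TPM, 18.7-fold lower. The others compared, ALDH4A1, ALDH5A1, ALDH6A1 and ALDH16A1, had log2 ratios from -0.13 to -0.073. ALDH1L1 was below the filter, at 0.324 TPM in si-NC but listed at 0 in si-FTO, and ALDH3B2 was listed at 0 in both.

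Over all 19 genes the summed level was nearly the same, 638 TPM in si-NC against 642 TPM in si-FTO, but its make-up was not. ALDH1A2 made up 7.22% of it in si-NC against 0.0402% in si-FTO. The corresponding shares of ALDH3B1 were 0.200% and 15.4%. The share of ALDH18A1, the most abundant gene in both groups, was 26.1% and 20.1%.

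**Figure D4:**
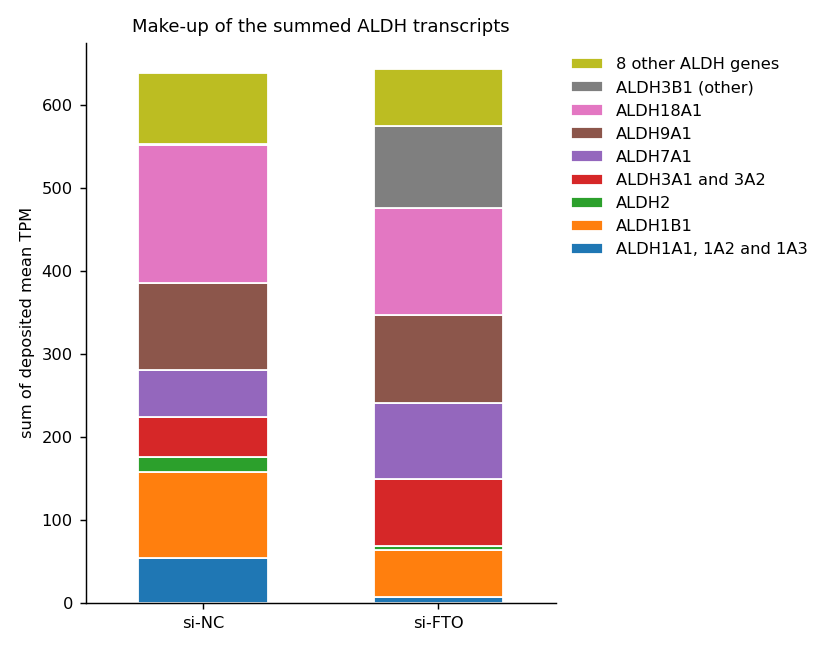
Stacked bars of the summed mean TPM of the 19 ALDH genes in si-NC and si-FTO, with 1 colour per gene or group of genes and no error. The bars reach 638 and 642 TPM, the segment of ALDH1A1, ALDH1A2 and ALDH1A3 is 54.5 and 7.48 TPM, and ALDH3B1 is visible only in si-FTO.

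Position in the genome was not used to choose the members. For each, the 10 genes compared on either side of it in GRCh37 were taken. ALDH1A2 lay below all 20 of its neighbours, whose median log2 ratio was 0.34. ALDH3A1 lay above 19 of 20 neighbours (median 0.41), and its direct neighbours, ALDH3A2 and the autophagy kinase gene ULK2, had log2 ratios of 0.55 and 0.35. Both sets of neighbours held genes past the threshold in each direction, 2 higher and 3 lower around ALDH1A2 and 3 higher and 2 lower around ALDH3A1.

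ALDH2 lay above 2 of its 20 neighbours (median -0.21) and ALDH1A1 above 1 of 20 (median -0.53). Around ALDH1A1, 5 neighbours were lower and 3 higher. The gene next to it on one side, the annexin gene ANXA1, was at 1.97 TPM in si-NC against 114 TPM in si-FTO, while the 3 genes after that, RORB-AS1, RORB and TRPM6, named after their values were seen, were lower and listed at 0 in si-FTO as ALDH1A1 is. Around ALDH1B1, 0 of its 20 neighbours were higher and 5 were lower, and their median of -0.72 was close to its own -0.85. The neighbours of ALDH18A1 likewise had 0 higher and 4 lower, with a median of -0.65 against -0.36 for the gene.

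**Figure D5:**
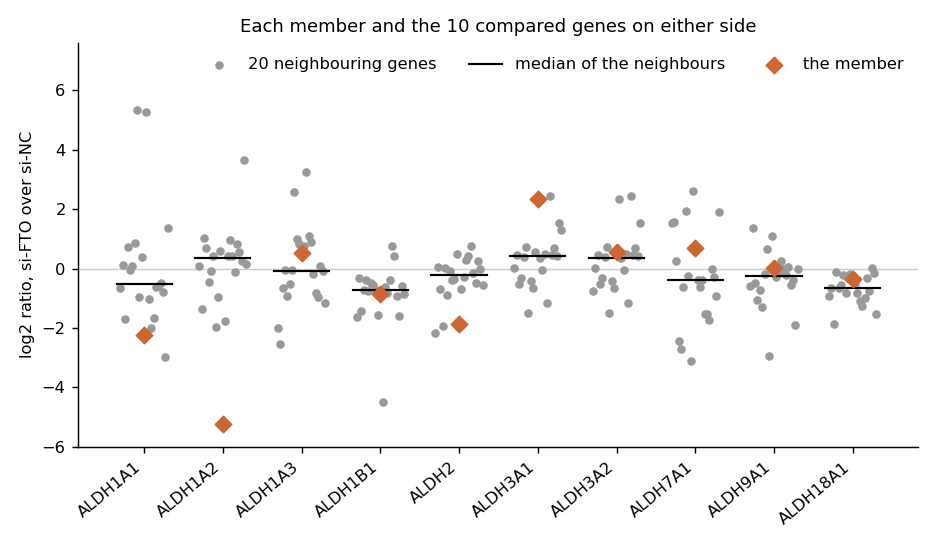
Log2 ratios (si-FTO over si-NC) of each member (diamonds) and of the 20 compared genes nearest to it in genome order (dots, from left to right in that order), with lines at the median of each 20. ALDH1A2 lies below all its dots, and ALDH1B1, ALDH3A2, ALDH9A1 and ALDH18A1 lie among theirs.

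The genes nearest to ALDH1A2 in the plane of both log2(mean TPM + 1) values were TUSC3, EN2 and GLDC, at distances of 0.053, 0.152 and 0.248. GLDC, the glycine decarboxylase gene, was at 52.6 TPM in si-NC against 0.125 TPM in si-FTO. Nearest to ALDH3A1 were NR4A3, CARD6 and MCTP1, at 0.0190, 0.0369 and 0.0577, with the nuclear receptor gene NR4A3 at 1.32 and 11.1 TPM. With 1 value per group, such a match covers 2 numbers per gene and says nothing of shared function.

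Related and overlapping genes could take each other's reads. The strand setting is not given in the sources used here. They name different tools, Bowtie with RSEM or HISAT2, so the way multiply mapped reads were counted is not settled. Words of 50 bases in annotated transcripts were matched on either strand. Of these words, ALDH1A1 and ALDH18A1 shared 0% with any other gene, and the other members from 0.514% (ALDH1B1) to 27.8% (ALDH1A3). Among the 19 ALDH genes, the only words a member shared were 15 of ALDH2 with ALDH5A1, so the 3 ALDH1A genes were separate at this length. Nearly all words that ALDH1A3 shared, 1480 of 1496, were shared with the antisense gene ALDH1A3-AS1, which lies on the opposite strand. ALDH1A3-AS1 was at 0.163 TPM in si-NC against 0.959 TPM in si-FTO. The value of ALDH1A3 is uncertain to that extent if reads were counted without regard to strand. ALDH7A1 shared 350 words with its pseudogene ALDH7A1P1, at 0.202 and 0.234 TPM. ALDH2 shared 10.2% of its words with other genes and overlaps ENSG00000257767 on the same strand, which was at 0.290 and 0.807 TPM. ALDH1A2 overlaps a noncoding gene on its own strand, ENSG00000274719, at 2.42 TPM in si-NC but listed at 0 in si-FTO.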

How the data were processed

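RNA-seq of total RNA from AGS cells (KAPA stranded kit) was available for 3 si-NC and 3 si-FTO libraries, grouped by their titles. For 58174 genes, the authors deposited the mean TPM of each group. Per the study's methods, reads were mapped to hg19 with Bowtie and quantified with RSEM, while the submitters' processing notes name HISAT2 and hg19. Versions, annotation and strand setting are not given in the sources used here. Sequencing depth cannot be recovered from TPM, and no interval is given. The deposited log2 ratio, p-value and q-value columns hold the authors' own comparison and were not used, and neither was a second table that their comparison picked from the first.

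Entries of 0.0001 TPM were taken as 0. Genes with a mean of at least 0.5 TPM in at least 1 group were compared (20493), by log2 of the ratio of both means after a pseudocount of 1 was added, and called at 1 or more in size, a 2-fold difference. No test was run. Symbols matched 55726 of 58174 identifiers. Gene coordinates and transcripts come from GRCh37 with the GENCODE annotation lifted to it, and promoters from RefSeq (GRCh38.p14). Protein identity between members was not computed. Named genes were the 10 members, FTO, list genes and direct neighbours. Also named were the 3 nearest genes in level to the members with the largest difference each way. Beyond these, RORB-AS1, RORB and TRPM6 were named after their values were seen, and ALDH7A1P1 because it shares words with ALDH7A1. Members and lists were chosen with earlier results of these data known. The lists were other ALDH genes, retinoid supply, receptors and targets, alcohol dehydrogenases, carbonyl reductases, other aldehyde clearance, the aryl hydrocarbon receptor battery, metabolism of proline, lysine, fatty aldehydes and carnitine, stem cell markers and cell type markers. Some genes of these lists, counted in them, are not reported here. Calculations used Python 3.11.15, numpy 2.4.6 and pandas 2.3.3. Only the log2 ratio and the call at 2-fold were tested on simulated data, with differences well past the threshold and without genes of low level. Alternatives were another pseudocount, scaling, filter, threshold or treatment of 0.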

Additional observations from a re-analysis of the deposited data

How the results depend on the processing

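Of the 8 alternative settings, 4 recompute the log2 ratios of members, and under these 39 of 40 kept their direction and their side of the 2-fold threshold. The exception was ALDH9A1, at -0.041 after quantile normalization. The log2 ratio ranged from -7.48 to -5.10 for ALDH1A2, from -2.10 to -1.68 for ALDH2, from 2.36 to 3.04 for ALDH3A1 and from -15.19 to -2.08 for ALDH1A1, where the lowest value is set by reading 0 as 0.0001 TPM. At a threshold of 1.5-fold, 2 members were higher and 4 lower, with ALDH7A1 and ALDH1B1 added, and 3855 of all genes were higher and 6397 lower. At 4-fold, with the pseudocount, ALDH2 was no longer called, and 976 genes were higher and 1241 lower. With 0 left at 0.0001 TPM and no pseudocount, 5348 genes were lower. At a minimum mean of 5 TPM, 9 members were compared without ALDH1A1, their median was 0.0050, and 2254 genes were lower. The members' median was 0.031 after median-ratio scaling and -0.24 after quantile normalization. The median of all genes was -0.032 with that scaling, -0.066 after quantile normalization and 0 without a filter. With median-ratio scaling 2786 genes were higher and 2885 lower, and after quantile normalization 2803 and 2902, so the excess of lower over higher genes (3492 against 2340) was mostly lost. These shifts follow from the thresholds, filters and scalings themselves.

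No paired analysis was possible because the table holds 1 mean per group, and for the same reason leaving out each replicate and limma were not run. Depth is unknown, so how precise the values of low genes such as ALDH1A1 and ALDH3A1 are cannot be given.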

Other observations

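Reductases, which turn aldehydes into alcohols, and other routes of aldehyde clearance lie beside the dehydrogenases. Of 12 aldehyde and carbonyl reductases, 11 were compared, 4 were higher and 1 was lower in si-FTO, with a median log2 ratio of 0.025. AKR1C3, which also reduces steroids and prostaglandins, was at 0.0856 TPM in si-NC against 28.9 TPM in si-FTO. AKR1B10, a reductase of retinaldehyde and other aldehydes, was listed at 0 in si-NC but reached 5.94 TPM in si-FTO, while AKR1B1, the aldose reductase, was the most abundant of the list at 350 and 296 TPM. CBR3 was the lower gene, at 5.84 and 1.44 TPM. Of 7 genes of other clearance routes, all compared, 1 was higher and 2 were lower, with a median of -0.15. PTGR1, which reduces unsaturated aldehydes and ketones, was at 0.265 and 148 TPM, GSTA4, a glutathione transferase for hydroxynonenal, at 62.3 and 7.57 TPM, and GLO1, which removes methylglyoxal, at 547 and 176 TPM.

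Stem cell markers often read beside ALDH activity were split. Of 9 listed, 8 were found and 6 compared, 1 was higher and 4 were lower, with a median of -1.27. CD44, a hyaluronan receptor, was at 2.22 TPM in si-NC against 94.5 TPM in si-FTO. SOX2 was at 13.2 TPM in si-NC but listed at 0 in si-FTO, LGR5 at 10.3 and 0.0102 TPM, and BMI1 at 98.6 and 35.2 TPM.

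Markers of other cell types had these levels. The 6 fibroblast markers summed to 16.0 TPM in si-NC against 45.5 TPM in si-FTO, with COL1A1 the most abundant at 10.3 and 36.4 TPM and COL1A2 at 0.00982 TPM in si-NC but listed at 0 in si-FTO. Of the 5 compared, 2 were higher (COL1A1 and PDGFRB), 1 was lower (COL3A1, at 2.18 and 0.361 TPM) and 2 were within the threshold. The 3 endothelial markers found of 4 summed to 0.414 and 41.0 TPM, nearly all of it CDH5 in si-FTO at 40.9 TPM. The 5 blood cell markers summed to 5.23 and 8.02 TPM with PTPRC listed at 0 in both groups. Of the 3 compared, 1 was higher, 1 was lower and 1 was within the threshold. None of the 5 hepatocyte markers was compared, and they summed to 0.298 and 0.0487 TPM.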
